A study of Cerrena unicolor with 12 samples.

Results

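Glutathione is the tripeptide γ-glutamyl-cysteinyl-glycine, the main small thiol of most fungal cells, and it is made in consecutive ATP-dependent steps. Glutamate-cysteine ligase first joins glutamate to cysteine, giving the dipeptide γ-glutamylcysteine, and glutathione synthetase then adds glycine. In the breakdown branch of the pathway the γ-glutamyl bond is cleaved first, and an aminopeptidase can split the remaining cysteinyl-glycine into free amino acids. Fungi use the tripeptide as an electron donor against peroxides, as a partner for conjugation by glutathione S-transferases and as a store of sulphur.

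The study lists the 3 genes described here under names taken from this pathway. They were chosen by their identifiers from its supplementary list of 11 glutathione genes, out of 11281 genes in the expression table. In that list A09094.gene is named glutathione synthetase and A04614.gene is named aminopeptidase. A03741.gene carries the name γ-glutamylcysteine, which is the dipeptide and not an enzyme. The dipeptide is the product of the first step and the substrate of the second. The listed name therefore gives neither the step of the gene nor the protein it encodes. The substrate of the aminopeptidase is not given either. A03741.gene and A09094.gene are called the synthesis genes and A04614.gene the aminopeptidase gene after these listed names, which were not checked. The expression table does not pair identifiers with products, and the reference gene table, made from another strain of the species, matched 0 of the identifiers. No sequence of these genes was used.

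The genes were followed in wild-type *Cerrena unicolor* 87613, a white rot fungus that secretes laccase, grown as hyphae in shaken liquid cultures on a potato dextrose medium whose carbon source was either glucose or fructose. Mycelia were taken on cultivation day 6 (Cd-6) and on day 10 (Cd-10). The paper gives high laccase activity for the first and low activity for the second, without describing fructose cultures. Each combination of sugar and day had 3 replicate cultures, which makes 12 RNA sequencing libraries from 1 strain. No time before Cd-6, no untreated control and no mutant of these genes were part of the analysis, and the hyphal label could not be checked against marker genes because the table names no products.

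A deposited value is the number of reads of a gene divided by 1 size factor per library, here called a normalized read count. It is not corrected for gene length, so that levels of different genes are not compared below, only their differences between cultures. The libraries held 10279983 to 12126094 reads assigned to genes. The counts behind the 3 genes ran from 149 to 3729 reads per library, which gives a counting error of 1.64 to 8.19%. A principal component analysis of 10396 genes placed all Cd-6 libraries at -50.8 to -22.3 and all Cd-10 libraries at 35 to 45 on the first component. Replicate 2 of glucose Cd-6 stood apart from the rest on the second component, at 62.6. The tests of the 3 genes, their ratios and the descriptions in which this library weighs most are also given without it. RNA came from whole mycelium, where fewer hyphae of one kind and less transcript per hypha cannot be told apart.

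In glucose cultures all 3 genes were more highly expressed at Cd-6 than at Cd-10, by 2.07- to 2.53-fold. In none of them did the replicates of the periods overlap, and 22.2% of all genes were separated in the same direction. In fructose cultures both synthesis genes rose at Cd-6 by a similar factor, 2.29-fold for A03741.gene and 2.17-fold for A09094.gene. The aminopeptidase gene was 1.27-fold higher there, which did not pass the test. Calls rest on limma, fitted to log2(value + 1) of all genes, with p-values adjusted by the Benjamini-Hochberg method and a threshold of 0.05, so that fold changes are on that scale.

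**Figure D1:**
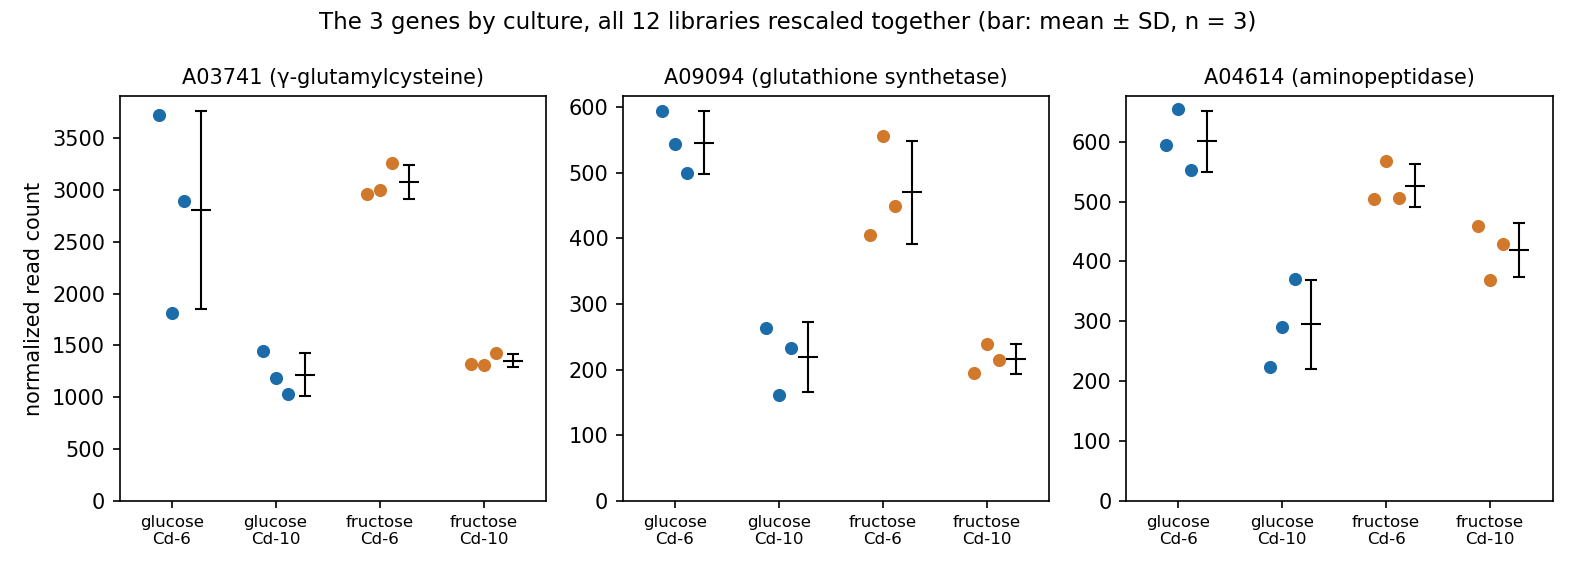
Normalized read counts of A03741, A09094 and A04614 in each library (points) by group, after all 12 libraries were rescaled together, with the mean ± SD of the 3 replicates (bars). Glucose cultures are blue and fructose cultures orange, and each panel has its own axis from 0. The Cd-6 points lie above the Cd-10 points of the same sugar in every panel, and the gap is narrowest for A04614 in fructose.

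A03741.gene, listed under the name of the dipeptide, had normalized read counts of 3878, 1894 and 3022 in the glucose Cd-6 replicates. In the glucose Cd-10 replicates they were 1513, 1244 and 1073. Every Cd-6 culture was above every Cd-10 culture, with replicate 2 of Cd-6, the library that stood apart, the lowest of its group. The log2 fold change was 1.15 (SE 0.27, 95% interval 0.52 to 1.78, limma adjusted p = 0.0216). Without replicate 2 of Cd-6 it was 1.44 (adjusted p = 0.0043). The call was lost without replicate 3 of Cd-6 (1.10, adjusted p = 0.074), replicate 2 of Cd-10 (1.14, adjusted p = 0.073) or replicate 3 of Cd-10 (1.03, adjusted p = 0.059).

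In fructose the same gene was much more uniform. Its normalized read counts were 2850, 2877 and 3126 at Cd-6 and 1264, 1256 and 1343 at Cd-10. The replicates of each day lay close together and the days were well separated, so that the difference of 1.20 on the log2 scale had a SE of only 0.13 (95% interval 0.90 to 1.49, limma adjusted p = 1.6e-04). On the scale shared by all libraries, the coefficient of variation between replicates was 5.35% at Cd-6 and 4.62% at Cd-10 in fructose, against 34.1% and 17.1% in glucose. The first glucose value was 17.8% from the 2 cultures left without replicate 2. The median over all genes was 13.6% and 18.1% in fructose and 19.7% and 16.3% in glucose. In fructose, 13% of the genes at Cd-6 and 5.85% at Cd-10 varied less between replicates than A03741.gene. In glucose the share was 77.4% at Cd-6, or 61.9% without replicate 2, and 52.4% at Cd-10.

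A09094.gene, listed as the glutathione synthetase of the second step, had normalized read counts of 620, 569 and 522 in glucose at Cd-6 and of 277, 168 and 243 at Cd-10. The lowest Cd-6 culture was thus well above the highest Cd-10 culture. The log2 fold change was 1.34 (SE 0.21, 95% interval 0.84 to 1.83, limma adjusted p = 0.00634), the largest point estimate of the 3 genes in glucose. Without replicate 2 of Cd-6 it was again 1.34 (adjusted p = 0.012).

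In fructose the synthetase gene had normalized read counts of 389, 534 and 430 at Cd-6 and of 187, 229 and 202 at Cd-10. The groups did not overlap, with replicate 2 the highest culture at both periods. The log2 fold change was 1.12 (SE 0.17, 95% interval 0.74 to 1.5, limma adjusted p = 0.00117). Unlike A03741.gene, the synthetase gene varied least in glucose Cd-6, with a coefficient of variation of 8.74%, and most in glucose Cd-10, at 24.2%, where it rested on 149 to 277 reads per library. Without replicate 2 the glucose Cd-6 value was 12.3%, above the 10.4% of fructose Cd-10.

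A04614.gene, listed as an aminopeptidase, had normalized read counts of 620, 684 and 578 in glucose at Cd-6. At Cd-10 they were 235, 304 and 387, the widest relative spread of this gene in any group (25.1%). The cultures of the days did not overlap. The log2 fold change was 1.05 (SE 0.21, 95% interval 0.57 to 1.53, limma adjusted p = 0.0124), and 0.99 without replicate 2 of Cd-6 (adjusted p = 0.028). In replicate 1 of Cd-6 this gene and A09094.gene had the same number of reads, 596, and their counts differed in the other 11 libraries.

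In fructose A04614.gene had normalized read counts of 485, 545 and 485 at Cd-6 and of 440, 353 and 405 at Cd-10. The 3 Cd-6 cultures were still above the 3 Cd-10 cultures, but the gap between the nearest cultures was small. The log2 fold change was 0.34 (SE 0.15, 95% interval 0.01 to 0.67), with an unadjusted p of 0.043 and an adjusted p of 0.108 from limma. It stayed short of the threshold under all 16 alternatives tried for this comparison, with adjusted p from 0.098 to 0.3.

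Set against all genes tested, the glucose call of 3 of 3 genes stands beside 11.3% of 10201 genes called higher at Cd-6. The study took its 11 genes from these glucose cultures, so that this count is not independent evidence of a direction. The paper does not describe the fructose cultures as part of that choice. In them 2 of 3 genes were called higher at Cd-6, beside 15.2% of 10060 genes. The genes were chosen here with earlier results of these data known, and the first component separated the days in both sugars. The fructose count is therefore not independent evidence either. Separated replicates were commoner among all genes. All 3 genes had Cd-6 replicates wholly above the Cd-10 replicates in both sugars, as did 22.2% of all genes in glucose and 23.1% in fructose.

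The sizes of the differences can be placed in the same way. In glucose 5.34% of all genes had a log2 fold change at least as high as that of A03741.gene, 3.48% as that of A09094.gene and 6.74% as that of A04614.gene. In fructose the shares were 6.72% for A03741.gene and 7.52% for A09094.gene, but 28.4% for A04614.gene. The limits used in the study are a log2 difference of 1 or more in size together with 0.001 as the bound on the unadjusted p. The study's own values place all 3 genes past both limits in glucose. With limma's p-values only A09094.gene passed both there, beside 7.05% of all genes in either direction. The unadjusted p was 0.00302 for A03741.gene and 0.00107 for A04614.gene. With DESeq2 on recovered reads all 3 genes passed in glucose, beside 12.2% of all genes. The log2 fold changes were then 1.2 for A03741.gene, 1.31 for A09094.gene and 1.02 for A04614.gene, the sizes that the study lists. With edgeR again only A09094.gene passed, beside 6.9% of all genes. All 3 also passed with libraries scaled to the same sum, beside 7.61%, and in a fit of all 12 libraries, beside 10%. With no filter on genes A09094.gene and A04614.gene passed, beside 6.52%. A03741.gene and A09094.gene passed without replicate 2 of glucose Cd-6, beside 6.8%. Without replicate 1 or replicate 3 of that group none did, beside 7.65% and 4.07%. Without replicate 3 of glucose Cd-10 A09094.gene and A04614.gene passed, beside 5.9%. In fructose A03741.gene and A09094.gene passed these limits, beside 10.9% of all genes. They did likewise with edgeR, beside 10.8%, and with DESeq2, beside 13.1%. Only A03741.gene did without replicate 2 of fructose Cd-6, beside 9.67%.

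Whether the day difference depended on the sugar was tested directly by the interaction of sugar and day over all 12 libraries, counted as the fructose difference minus the glucose difference. For A03741.gene it was 0.03 (95% interval -0.64 to 0.70, limma adjusted p = 0.966). For A09094.gene it was -0.23 (95% interval -0.83 to 0.37, limma adjusted p = 0.657). These intervals reach 0.70 and -0.83 log2 units, so that an equal response in the sugars is not shown. Without replicate 2 of glucose Cd-6 the interactions were -0.26 for A03741.gene, -0.24 for A09094.gene and -0.66 for A04614.gene, with adjusted p from 0.21 to 0.71.

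For A04614.gene the interaction was -0.72 (SE 0.25, 95% interval -1.27 to -0.17), the most negative of the 3 genes. Its unadjusted p was 0.014 and its adjusted p over all genes was 0.119 from limma, so that none of the 3 genes was among the 4.67% of 10396 genes called for the interaction. Without replicate 3 of glucose Cd-10, which was the highest of its group, the interaction was -0.90 and passed (adjusted p = 0.038). Over the alternatives the adjusted p ran from 0.038 to 0.24, and it was 0.12 with edgeR and 0.086 with DESeq2 on whole reads recovered from the values. With each library scaled to the same sum it was 0.051.

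**Figure D2:**
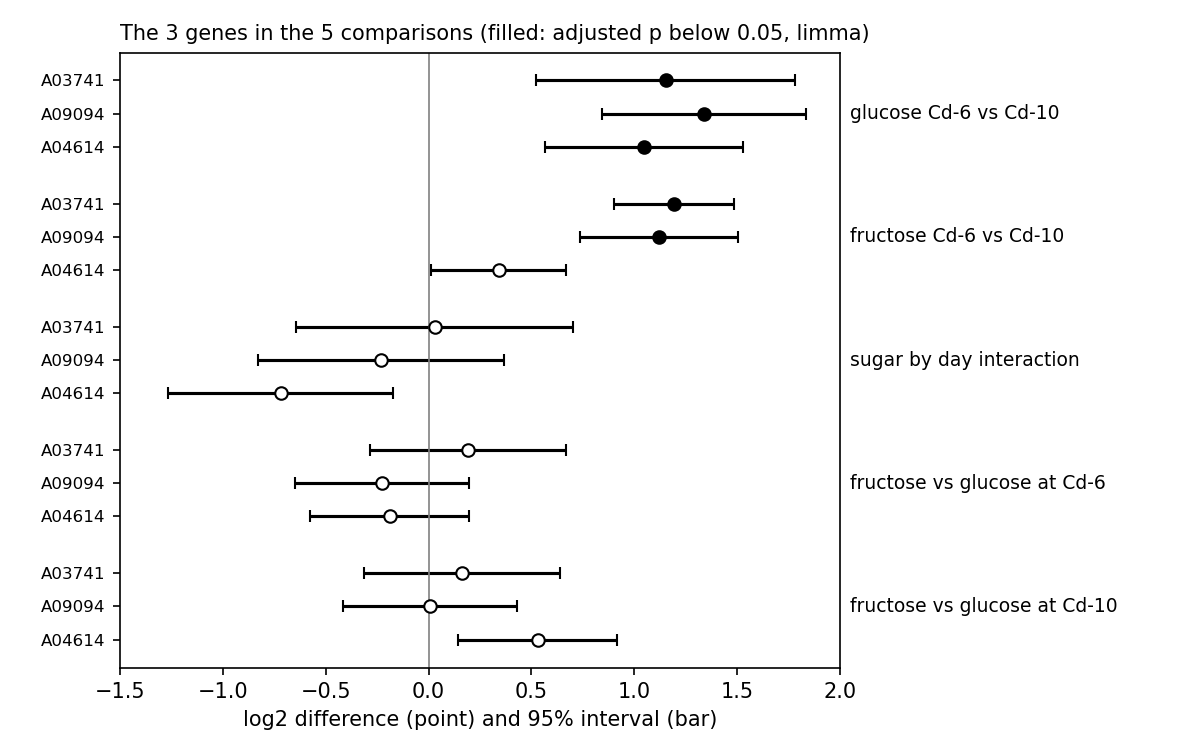
Log2 differences (points) with 95% intervals (bars) of the 3 genes in the 5 comparisons, from limma. Day comparisons are Cd-6 minus Cd-10, sugar comparisons fructose minus glucose, and the interaction is the fructose day difference minus the glucose one. Filled points have an adjusted p below 0.05, and they are the 3 genes in glucose and A03741 and A09094 in fructose.

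Between the sugars at a given day, none of the 3 genes was called. At Cd-6 the fructose minus glucose difference was 0.19 for A03741.gene (95% interval -0.28 to 0.67), -0.22 for A09094.gene (-0.65 to 0.20) and -0.19 for A04614.gene (-0.58 to 0.20), with limma adjusted p from 0.499 to 0.623. In this comparison 10.3% of 10396 genes were called in either direction. The replicates of the sugars overlapped for each of the 3 genes. Of all genes, 16.4% lay wholly higher in fructose and 15.8% wholly lower, so that overlap was common. Without replicate 2 of glucose Cd-6 the difference of A03741.gene changed its sign, to -0.10, and was not called on either side (adjusted p = 0.83). The differences of A09094.gene and A04614.gene were then -0.23 and -0.13 (adjusted p = 0.65 and 0.8).

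At Cd-10, where 3.34% of 10396 genes were called, the difference was 0.16 for A03741.gene (95% interval -0.31 to 0.64, limma adjusted p = 0.704). It was 0.01 for A09094.gene (95% interval -0.42 to 0.43, limma adjusted p = 0.99). A04614.gene lay higher in fructose by 0.53 (95% interval 0.14 to 0.92), with an unadjusted p of 0.011 and a limma adjusted p of 0.112. On the shared scale its fructose values were 459, 369 and 429 and its glucose values 223, 290 and 371. The highest glucose culture, replicate 3, was just above the lowest fructose culture. Without that glucose replicate the difference was 0.71 and passed (adjusted p = 0.046).

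Ranked by group means on the shared scale, A03741.gene was highest in fructose Cd-6 (3078 ± 165, SD, n = 3), followed by glucose Cd-6 (2809 ± 958, or 3308 ± 587 from 2 cultures without replicate 2, which places it first), fructose Cd-10 (1351 ± 62.4) and glucose Cd-10 (1218 ± 208). The order of the sugars within each day does not exceed the spread of the replicates. A09094.gene was highest in glucose Cd-6 (546 ± 47.8) and fructose Cd-6 (470 ± 78.1), and the Cd-10 groups were level with each other at 219 ± 52.9 in glucose and 216 ± 22.5 in fructose. For A04614.gene the order was glucose Cd-6 (601 ± 50.7), fructose Cd-6 (527 ± 36.1), fructose Cd-10 (419 ± 45.6) and glucose Cd-10 (295 ± 73.9). Its neighbouring groups overlapped at the top and at the bottom of this order, and fructose Cd-6 and fructose Cd-10 did not overlap but were not called different.

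Ratios of reads within a library do not depend on how libraries are scaled, and they show how the genes moved relative to each other. The log2 ratio of A03741.gene to A09094.gene, the synthesis genes, differed between Cd-6 and Cd-10 by -0.19 in glucose and by 0.07 in fructose. Its sign in glucose rested on single cultures, with 0.10 without replicate 2 of Cd-6 and 0.01 without replicate 2 of Cd-10. In fructose it ran from -0.03 to 0.22 when any 1 culture was left out. Over both sugars the difference was -0.06, with an exact two-sided permutation p of 0.765 from shuffling days within each sugar. In single libraries this ratio ran from 1.73 in replicate 2 of glucose Cd-6 to 2.89 in replicate 2 of glucose Cd-10, and the days overlapped in both sugars, in fructose only as long as replicate 2 of Cd-6 was included.

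The ratios of the synthesis genes to A04614.gene did not overlap between the days in fructose, and no such difference passed the test. With 3 cultures against 3 the test could not pass there. These differences largely restate the gaps between the log2 fold changes given above. How often other pairs of genes separate in this way was not examined. The log2 ratio of A03741.gene to A04614.gene was 2.55, 2.40 and 2.69 at Cd-6 and 1.52, 1.83 and 1.73 at Cd-10, a difference of 0.85 without overlap, and of 0.77 to 0.93 when any 1 culture was left out. In glucose the ratio was 2.65, 1.47 and 2.39 at Cd-6 and 2.69, 2.03 and 1.47 at Cd-10, a difference of 0.10 with overlap. This glucose value depended on single cultures: it was 0.45 without replicate 2 of Cd-6 and 0.415 without replicate 1 of Cd-10, and negative without replicate 1 of Cd-6 (-0.14), replicate 3 of Cd-6 (-0.01) or replicate 3 of Cd-10 (-0.19). For A09094.gene to A04614.gene the fructose ratio was -0.32, -0.03 and -0.17 at Cd-6 and -1.24, -0.62 and -1.0 at Cd-10, a difference of 0.78, again without overlap, and of 0.64 to 0.95 when any 1 culture was left out. In glucose it was 0.0, -0.26 and -0.15 against 0.24, -0.85 and -0.67, a difference of 0.29 with overlap, since replicate 1 of glucose Cd-10 had the highest ratio of all. Without that culture it was 0.62 without overlap, without replicate 2 of Cd-6 it was 0.36, and without replicate 2 or 3 of Cd-10 it was 0.08 or 0.17.

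With 3 cultures against 3, the exact permutation test cannot give a p below 0.1, which is the value of both fructose differences. Over both sugars the smallest possible p is 0.005. The day difference of the ratio of A09094.gene to A04614.gene was 0.54, with an exact permutation p of 0.035 and 0.105 after adjustment over the 3 ratios. For A03741.gene to A04614.gene it was 0.48, with an exact permutation p of 0.125 and 0.188 after adjustment, so that no ratio passed. Without replicate 2 of glucose Cd-6 these differences were 0.57 and 0.65, and that of A03741.gene to A09094.gene was 0.08, with adjusted exact permutation p from 0.075 to 0.63. Without replicate 1 of glucose Cd-10 the ratio of A09094.gene to A04614.gene differed by 0.70 and passed (exact permutation p = 0.005, adjusted 0.015).

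**Figure D3:**
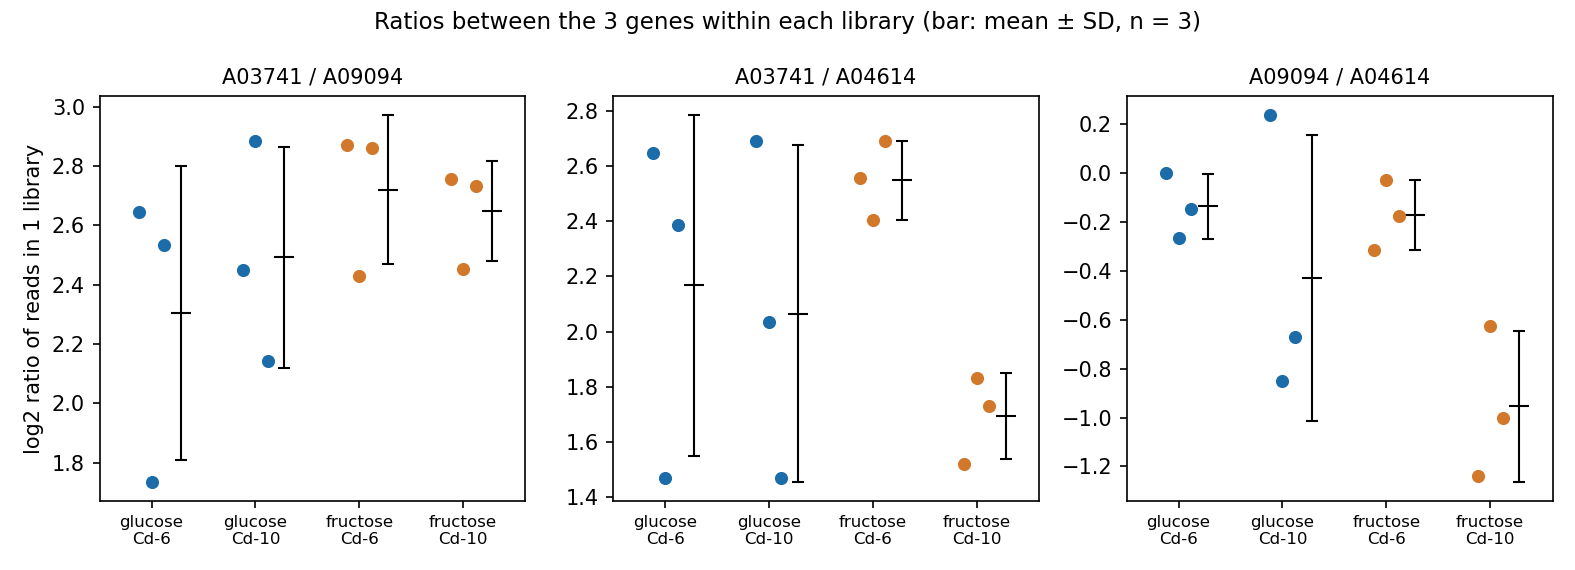
Log2 ratios of the reads of each pair of genes within each library (points), by group, with the mean ± SD of 3 replicates (bars). Glucose cultures are blue and fructose cultures orange, and the axes do not start at 0. The fructose ratios to A04614 are separated by day, by 0.85 for A03741 and 0.78 for A09094, while the ratio of A03741 to A09094 overlaps between days in both sugars.

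The rest of the study's glutathione list gives the setting of the 3 genes. It holds 8 further genes, of which 5 are named glutathione S-transferases, enzymes that conjugate glutathione to other compounds, and 2 trypanothione reductases, a name for disulphide reductases known from trypanosomes. The last is named glucose-6-phosphate dehydrogenase, which makes NADPH. In glucose all 8 were called higher at Cd-6, beside 11.3% of all genes. Their median log2 fold change was 1.61, from 1.16 for A00119.gene, a listed trypanothione reductase, to 2.42 for A04379.gene, a listed glutathione S-transferase. The median of all genes was 0.00 in that comparison. The log2 fold changes of A03741.gene, A09094.gene and A04614.gene, 1.05 to 1.34, lay at the low end of this range. Those of A03741.gene and A04614.gene were below all 8, for A03741.gene by very little (1.152 against 1.159 for A00119.gene). That order depended on the method. A03741.gene stood at 1.21 with edgeR and 1.2 with DESeq2, above A00119.gene at 1.13 and 1.12. The 8 genes had a median of 1.76, from 1.04 to 2.84, without replicate 2 of glucose Cd-6, and 7 were called, while A03741.gene stood at 1.44. Leaving out any other glucose culture left 5 to 7 called, and A00119.gene lost its call in 4 of the 6 cases. The study picked these genes on the same cultures, and the differences between genes were not tested.

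In fructose 7 of the 8 were called higher at Cd-6, beside 15.2% of all genes. The median log2 fold change of the 8 was 1.51 beside 0.00 for all genes, up to 2.22 for A07600.gene, a listed trypanothione reductase. Of the 8, 6 were called without replicate 2 of fructose Cd-6. The exception was A00119.gene, with 0.33 (SE 0.16, limma adjusted p = 0.139), a value close to the 0.34 of A04614.gene. These were the 2 genes of the 11 that did not pass in fructose. With all libraries they had the most negative interactions of the list, -0.84 (adjusted p = 0.198) and -0.72. A01960.gene, a listed glutathione S-transferase called in fructose, was close to them at -0.69 (limma adjusted p = 0.273). Without replicate 2 of glucose Cd-6 A01960.gene was the most negative of the 8 at -0.89. A00119.gene was then at -0.72 and A04614.gene at -0.66. None of the 11 was called for the interaction by limma with all libraries, beside 4.67% of all genes. Without replicate 3 of glucose Cd-10 A00119.gene and A04614.gene were called (-1.16 for A00119.gene, adjusted p = 0.042). Between the sugars A07600.gene was the only one of the 11 called, higher in fructose at Cd-6 by 1.23 (limma adjusted p = 0.0334), beside 5.29% of all genes. That call was lost without any 1 of 5 of the 6 Cd-6 cultures, with 0.94 (adjusted p = 0.13) without replicate 2 of glucose and adjusted p from 0.055 to 0.14 in the others. At Cd-10, without replicate 3 of glucose, 1 of the 8 was called higher in fructose, and at Cd-6, with libraries scaled to the same sum, 1 of the 8 was called lower.

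**Figure D4:**
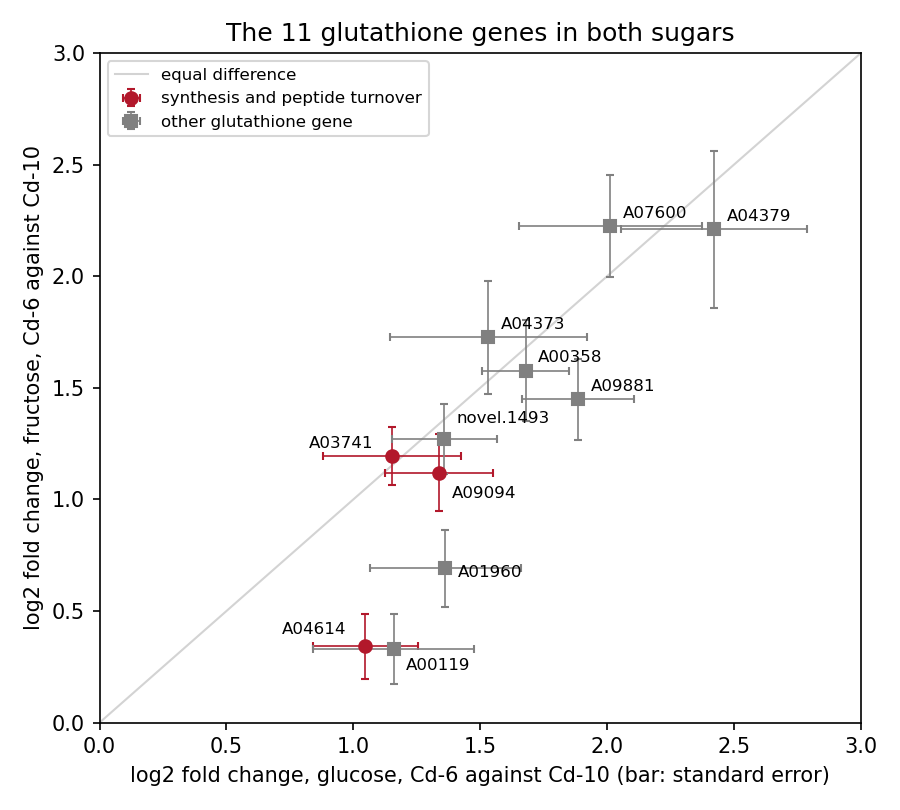
Log2 fold changes of Cd-6 against Cd-10 in glucose (horizontal) and fructose (vertical) for the 11 listed glutathione genes, with standard errors (bars) and a line of equal difference. A03741, A09094 and A04614 are red circles and the 8 others grey squares. A03741 and A09094 lie near the line, while A04614 (1.05 against 0.34) lies below it beside A00119 (1.16 against 0.33). A01960 (1.36 against 0.69) also lies below it.

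Across the 12 libraries the profiles of the 3 genes were related to different degrees. Pearson's r of the log2 values was 0.874 between A03741.gene and A09094.gene, 0.754 between A09094.gene and A04614.gene and 0.671 between A03741.gene and A04614.gene. Over the 11 libraries other than replicate 2 of glucose Cd-6 these were 0.942, 0.719 and 0.747. These values describe libraries that fall into 4 groups and share the difference between days, so that no p is given. Among 10395 other genes, the profile most like that of A09094.gene was the glucose-6-phosphate dehydrogenase gene of the same list, with r = 0.973. Its log2 fold change was 1.36 in glucose and 1.27 in fructose. A02936.gene, which is not in that list, was almost as close (r = 0.972), with 0.647 in glucose and 0.613 in fructose. The nearest to A03741.gene was A03646.gene, with r = 0.966, and 1.24 in glucose and 1.26 in fructose. The nearest to A04614.gene was A05278.gene, with r = 0.956, and 0.71 in glucose and 0.20 in fructose. A03646.gene was the third nearest to A03741.gene without replicate 2 of glucose Cd-6 (r = 0.971), and the other nearest profiles kept their place. Neither A03646.gene nor A05278.gene has a product in the sources used here. An r above 0.8 was common, with 5.13% of genes for A03741.gene, 6.03% for A09094.gene and 2.96% for A04614.gene, or 8.11%, 6.7% and 2.96% without replicate 2 of glucose Cd-6.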

How the data were processed

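RNA of 12 cultures was sequenced on an Illumina platform. According to the paper, reads were mapped to the strain's genome with HISAT2 and counted with featureCounts; the submitters' processing notes also name Cufflinks, without a role. Each deposited value is a signal: the read count of a gene, which the authors divided by 1 factor per library, set apart for each sugar. In all 12 libraries every value was a whole multiple of that of 1 read (tolerance 0.01 reads, 100% of values). In 3 of them that step lies within 1% of 1, but at most 9.43% of their deposited values are whole, so that their reads were recovered as well.

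The libraries of a comparison were brought to one scale with median-ratio factors. Genes that reached a value of 10 in 3 or more libraries were fitted as log2(value + 1) with limma 3.58.1 (R 4.3.3; lmFit, eBayes with a trend), and p-values were adjusted over all genes. Day comparisons used the 6 libraries of a sugar; comparisons of sugars and the interaction used all 12. Ratios were tested by exact permutation, adjusted over 3 ratios. The 3 genes were named throughout, the 8 other glutathione genes by counts and extremes, a list of 12 amino acid biosynthesis genes by counts and median, and the most alike profiles by Pearson's r. Alternatives were other scalings, filters, pseudocounts, a replicate block, other libraries in the fit, leaving out each library, and edgeR 4.0.16 and DESeq2 1.42.0 on recovered reads. Their use on the study's limits, the gene lists, ratios within a sugar and the replicate spread was added after the data were seen. The fits were tested on simulated data. Figures were made with matplotlib 3.10.9 in Python 3.11.15.

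Genes and lists were chosen with earlier results of these data known. The labels call the cultures replicates, and p-values measure only the spread between them. No library was a copy of another (chi-square per gene of 12.1 to 156 between replicates). Nothing in the labels gives a batch. Whether reads were counted by strand is not given in the sources used here.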

Additional observations from a re-analysis of the deposited data

How the results depend on the processing

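Of 291 alternative values of the 3 genes in the 5 comparisons, 274 kept their direction and their side of the threshold. Both synthesis genes in fructose and the synthetase and aminopeptidase genes in glucose stayed called under each alternative, although the aminopeptidase gene came to just under 0.05 without replicate 2 of glucose Cd-10. Leaving out 1 library gave log2 fold changes of 0.924 to 1.44 for A03741.gene in glucose, and interactions of -0.26 to 0.258 for A03741.gene and -0.899 to -0.54 for A04614.gene. It gave sugar differences of -0.0974 to 0.422 for A03741.gene at Cd-6, and of -0.206 to 0.156 for A09094.gene and 0.349 to 0.708 for A04614.gene at Cd-10. The ratio of A03741.gene to A09094.gene then ran from -0.146 to 0.0845 and that of A09094.gene to A04614.gene from 0.431 to 0.703. The other reversals were of values near 0 that were not called: the interaction of A03741.gene (-0.274 with libraries scaled to the same sum, -0.0316 with edgeR, -0.0162 with DESeq2), its sugar difference at Cd-6 (-0.082 with the same sum) and that of A09094.gene at Cd-10 (-0.0278 with edgeR, -0.0221 with DESeq2).

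Scaling to the same sum moved the median of all genes to 0.204 in glucose, -0.117 in fructose, -0.303 for the interaction and -0.27 for sugars at Cd-6. Relative to these medians A04614.gene was at 1.05, 0.34, -0.72 and -0.19, and A03741.gene at 1.15, 1.20, 0.03 and 0.19. Calls up and down were then 1582 and 889 in glucose (1149 and 1313 in the analysis reported), 1173 and 1977 in fructose (1527 and 1472), 216 and 527 for the interaction (295 and 190), and 317 and 1277 for sugars at Cd-6 (550 and 522). With edgeR they were 465 and 603 for sugars at Cd-6.

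Counts of genes called depended on the libraries. Leaving out 1 gave 983 to 2324 in glucose (2462 reported), 1789 to 2704 in fructose (2999), 92 to 1073 for the interaction (485), 292 to 1754 for sugars on day 6 (1072) and 15 to 552 on day 10 (347). The interaction had 743 calls with the same sum, 279 without a variance trend and 1039 with DESeq2. Sugars at Cd-6 had 597 in the 6 libraries of that day and 1651 with DESeq2. At Cd-10 there were 189 without a trend, 142 in the 6 libraries of that day and 907 with DESeq2. The causes were not tested. The number of the 3 genes past the study's limits in glucose was 0 to 3 over the alternatives, beside 3.78 to 12.2% of all genes. In fructose it was 1 or 2, beside 7.9 to 13.1%.

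No pairing of cultures by replicate number was detected. Deviations of same-numbered cultures correlated at -0.0845 to 0.0931 in 6 pairs, and those of differently numbered cultures at -0.114 to 0.117. Among the Cd-6 cultures, only replicate 1 of glucose and replicate 1 of fructose correlated best with the Cd-10 culture of their own number. For replicate 2 of glucose and replicates 2 and 3 of fructose the own number gave the lowest correlation. So few cultures cannot show that they were unpaired. With a replicate block the calls numbered 1767 in glucose, 2480 in fructose, 443 for the interaction, 973 for sugars on day 6 and 171 on day 10, while no call of the 3 genes changed. With 3 cultures a group, the intervals of the interaction were 1.10 to 1.35 log2 units wide, which limits what could be detected.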

Other observations

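Glutathione is built from amino acids, and the study's supplementary pathway list for amino acid biosynthesis holds 12 genes, which the study chose on the glucose cultures. In glucose 8 of them were higher at Cd-6 and 4 lower (limma adjusted p below 0.05), beside 11.3% and 12.9% of all genes. Their median log2 fold change was 1.30. In fructose 7 were higher, 4 lower and 1 was not called, with a median of 1.43. Of all genes, 15.2% were called higher there and 14.6% lower. The medians over all genes were 0.00 in both. None of the 12 was called for the interaction, beside 4.67% of all genes. Higher in fructose were 3 at Cd-6, beside 5.29% of all genes, and 2 at Cd-10, beside 1.54%. The glucose counts were again 8 and 4 without replicate 2 of glucose Cd-6, with a median of 1.37. Leaving out 1 library gave 7 or 8 higher and 4 lower in glucose, and for the sugars it gave 0 to 3 genes higher in fructose on day 6 and 0 to 2 on day 10. For the interaction, 1 gene was called without replicate 1 of glucose Cd-6, 1 with DESeq2 and 1 with libraries scaled to the same sum. Their list mixes directions, unlike the 11 glutathione genes, of which none was called lower at Cd-6 in either sugar. In glucose this contrast only repeats the choice of the genes. The study lists all 11 as higher at Cd-6 in those cultures, and the 12 as 8 higher and 4 lower.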
